A study of Mus musculus with 48 samples.

Results

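The first day of insulin and rosiglitazone in control 3T3-L1 cells was examined as the change from day 0 to day 1. The members were the 6 arrays of cells given control siRNA on these days, 3 per day and matched by replicate number, out of 48 arrays in the series, and all 24613 probes were compared. 3T3-L1 is an established mouse fibroblast line that turns into fat cells in culture. All control cells carried a pool of non-targeting siRNA at 50 nM. Once confluent, the cells were kept for 48 h, from day −2 to day 0, in IBMX (0.5 mM) with dexamethasone (0.25 µM), and from day 0 for a further 48 h in insulin (5 µg/ml) with rosiglitazone (1 µM). RNA came from 3 independent cultures on each of 8 days, and parallel cultures on the same protocol received siRNA against PPARγ. Day 0 cells had thus completed the dexamethasone and IBMX treatment, and day 1 cells had spent a day without these agents and with insulin and rosiglitazone. Removal of the first pair of agents and addition of the second cannot be told apart.

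Dexamethasone activates the glucocorticoid receptor, and IBMX blocks phosphodiesterases and so raises cyclic AMP. Together they induce C/EBPβ and C/EBPδ, early factors that precede PPARγ and C/EBPα in the adipogenic cascade. Rosiglitazone is a ligand of PPARγ, the nuclear receptor that binds DNA with RXR and turns on genes of lipid storage. Insulin drives glucose uptake and lipid synthesis. Growth-arrested 3T3-L1 cells re-enter the cell cycle after induction and divide before they mature, a phase known as mitotic clonal expansion.

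On each array 33.4% to 38.8% of probes were above background (detection p under 0.01), and raw median intensities lay between 115.2 and 137.7. Replicate 3 stood apart, with 33.4% to 33.6% of probes above background against 38.1% to 38.8% in replicates 1 and 2. Values below are log2 intensities after background correction and scaling. Values of different probes are not on a common scale and were not set against each other. Only for the marker lists were signals of probes summed.

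Of 24613 probes, 2231 (9.06%) differed between the days (limma, Bonferroni threshold of 0.05). 1204 were higher on day 1 and 1027 were lower, with median differences of 0.86 and −0.87, and every one of them moved in the same direction in all 3 replicate pairs. 461 of the higher and 395 of the lower probes changed by more than 2-fold. The median over all probes was 0.04. With each of the 18991 gene symbols represented by its brightest probe, 1021 genes (5.38%) were higher and 904 genes (4.76%) were lower on day 1. 15 of the called probes were above background on neither day.

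**Figure D1:**
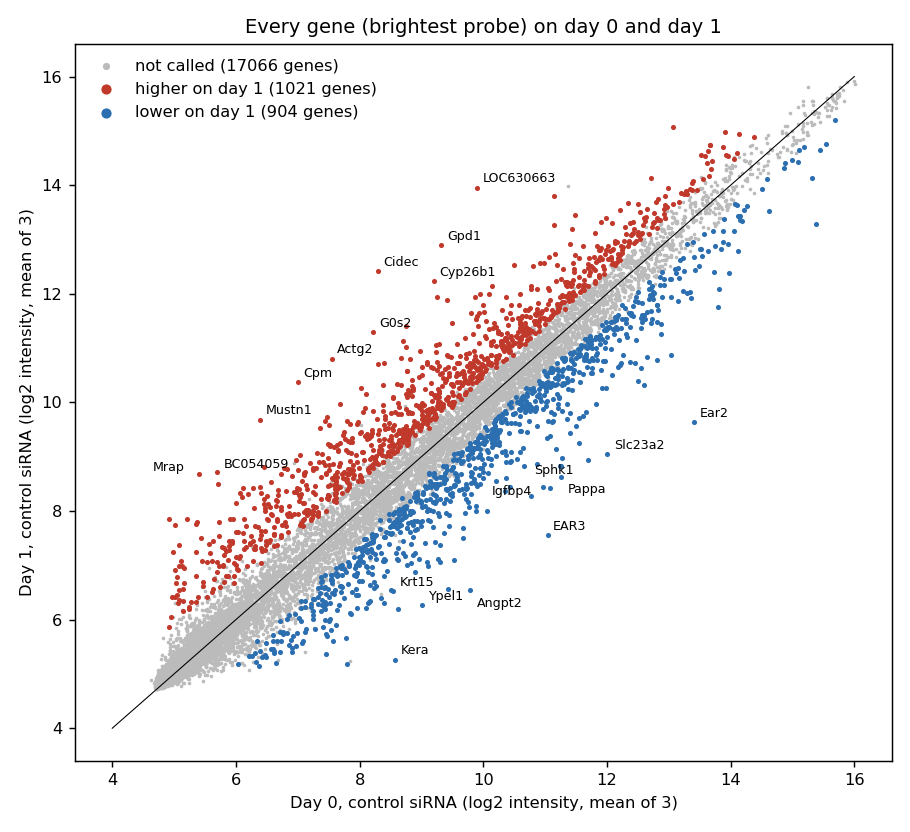
Mean log2 intensity of each of 18991 genes (brightest probe) on day 0 (x axis) and day 1 (y axis) in control siRNA cells, 3 arrays per day. Coloured points are the 1021 genes called higher and the 904 called lower, the line marks equal values, and the 10 largest rises and falls are named.

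Lipid genes were among the largest rises. Cidec, a lipid droplet protein that promotes droplet growth, read 8.73, 8.37 and 7.80 on day 0 and 12.67, 12.51 and 12.08 on day 1. The day 1 arrays were all far above the day 0 arrays. The difference over the 3 pairs was 4.12 ± 0.22 (SE), a 17.4-fold rise (limma, adjusted p = 2.31e-16). Each SE given is that of the model fitted to all 48 arrays, not the spread of the 3 pairs. Gpd1, the cytosolic enzyme that makes glycerol-3-phosphate for triglyceride, read 9.40, 9.49 and 9.08 on day 0 and 12.94, 12.94 and 12.81 on day 1. The days did not overlap, and the rise was 11.9-fold. Mrap, an accessory protein of melanocortin receptors, was above background on no day 0 array and on all 3 day 1 arrays, at 8.89, 8.69 and 8.45. Its rise was at least 4.56-fold, taking the lowest signal above background as the floor on day 0. G0s2, an inhibitor of adipose triglyceride lipase, went from a mean of 8.22 to 11.29 (8.39-fold). The transcript BC054059, which the study names as adipogenin, rose at least 4.72-fold from below background on day 0.

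Other genes at the top of the list have roles outside lipid storage. Actg2, the smooth muscle γ-actin, rose by 3.26 and Mustn1, a small nuclear protein of muscle and bone, by 3.29. Cpm, a membrane carboxypeptidase, read 7.06, 7.04 and 6.93 on day 0 and 10.35, 10.37 and 10.38 on day 1. The spread within each day was small beside this difference of 3.36 ± 0.17 (SE). Cyp26b1, which clears retinoic acid, rose by 3.03, and the unnamed locus LOC630663 rose by 4.05.

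The largest falls included secreted and signalling genes. The probes listed as Ear2 and EAR3, symbols of the eosinophil-associated ribonuclease family that are also older names of nuclear receptors, were both lower. Ear2 fell by 3.77 and EAR3 fell by 3.48. They had been at 5.24 and 5.83 on day −2 and were at 13.41 and 11.04 on day 0. The ribonucleases are near-identical to each other, so which gene these probes read is uncertain. Angpt2, an antagonist ligand of the TIE2 receptor, read 9.92, 9.80 and 9.62 on day 0 and 6.76, 6.35 and 6.51 on day 1. Every day 1 value was below every day 0 value, and only 1 of 3 day 1 arrays was above background. Igfbp4, a secreted binding protein that holds IGFs, and Pappa, the protease that cleaves it, fell by 2.65 ± 0.12 and 2.62 ± 0.12 (SE). Sphk1, which makes sphingosine-1-phosphate, fell by 2.75, Slc23a2, a vitamin C transporter, by 2.95, and the epithelial keratin Krt15 fell by 2.87. Kera, a corneal proteoglycan, and Ypel1 were above background on all day 0 arrays and on no day 1 array, and fell at least 4.17-fold and 5.65-fold.

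**Figure D2:**
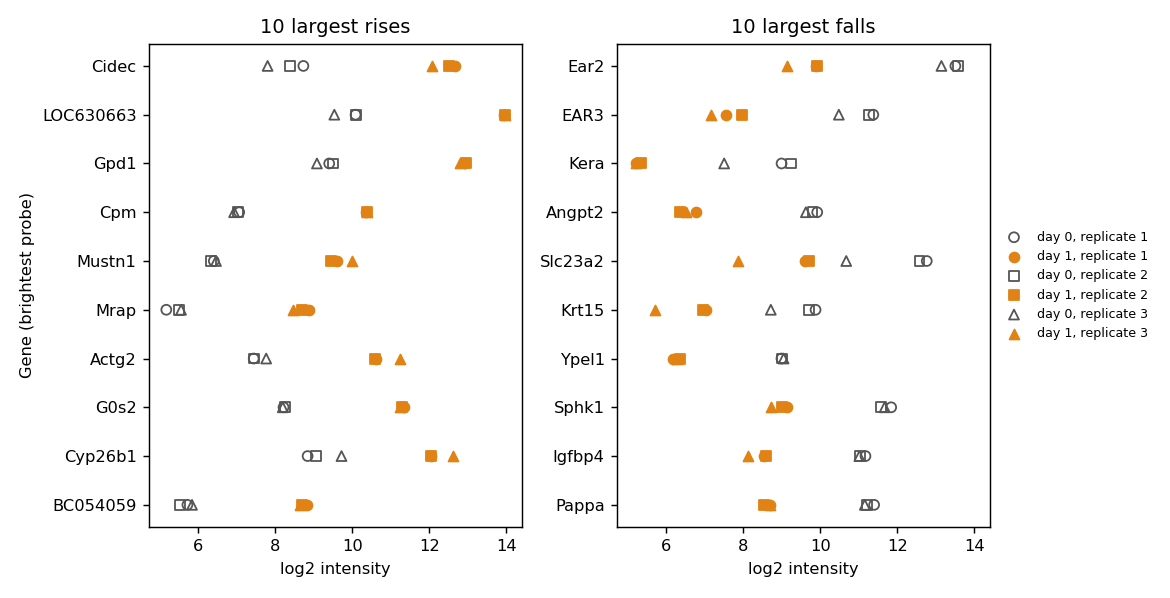
Log2 intensity (x axis) of the 10 genes with the largest rise and the 10 with the largest fall on each of the 6 arrays, open symbols for day 0 and filled symbols for day 1, with a shape for each replicate. The days did not overlap in any of these genes, and Slc23a2 and Krt15 were lower in replicate 3 than in the other replicates on both days.

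Glucocorticoid-responsive genes were lower after the day without dexamethasone. Of 32 listed, 13 (40.6%) were lower on day 1, against 4.76% of all genes, and 0 were higher, against 5.38%. The list median was −0.61. Dusp1, the phosphatase that inactivates MAP kinases, read 11.90, 11.88 and 11.71 on day 0 and 10.05, 9.96 and 9.89 on day 1, a fall of 1.87 ± 0.09 (SE). Its days did not overlap. Lcn2, the secreted siderophore binder lipocalin 2, fell by 1.71, Rgs2, a brake on G protein signalling, by 1.65, and the transporter gene Slc10a6 at least 1.94-fold to below background. Fkbp5, the classical glucocorticoid receptor target and co-chaperone, read 12.41, 12.35 and 12.18 on day 0 and 11.47, 11.63 and 11.26 on day 1. Its fall of 0.86 left it at a mean of 11.45, above its day −2 mean of 8.81. Tsc22d3, which encodes the glucocorticoid-induced leucine zipper, fell from 9.52 to 8.49, with 6.19 on day −2. Fkbp5 had an adjusted p of 1 without replicate 1 and 0.137 without replicate 2, and Tsc22d3 of 0.13 to 0.18 without any one replicate. In the preceding interval, which shares the day 0 arrays, 22 of the 32 rose from day −2 to day 0, against 4.47% of all genes, and 0 fell, against 5.66%.

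Of 29 cyclic AMP-responsive genes, 10 (34.5%) were lower on day 1 and 0 higher, against 4.76% and 5.38% of all genes. The list median of −0.35 was −0.23 without replicate 1, −0.20 without background correction and −0.995 with dim probes filtered out. The largest falls were those of Dusp1 and Rgs2, which both lists hold, then Fos and Stc1. Stc1, a secreted glycoprotein hormone, fell by 1.27, and Fos, an immediate early component of AP-1, fell at least 1.9-fold to below background on day 1. The Fos fall had an adjusted p of 1 without replicate 1 and 0.349 without replicate 2. Nr4a1, an immediate early nuclear receptor, was above background on no array of either day.

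The early adipogenic factors fell, and the difference of Pparg itself was not called. Cebpb read 13.63, 13.41 and 13.60 on day 0 and 12.80, 12.63 and 12.68 on day 1, a fall of 0.85 ± 0.08 (SE, limma, adjusted p = 5.23e-09). Cebpd read 11.84, 11.89 and 11.49 on day 0 and 10.62, 10.77 and 10.23 on day 1, a fall of 1.20. Each gene's day 1 arrays lay below all its day 0 arrays. Klf5, a Krüppel-like factor induced early in adipogenesis, fell by 1.72 from a mean of 11.98, having been at 7.71 on day −2, and Ebf1, an early B cell factor that promotes adipogenesis, fell by 1.21. Rxra, the DNA-binding partner of PPARγ, fell by 0.91, with an adjusted p of 0.0799 without replicate 1. Pparg read 11.39, 11.21 and 11.34 on day 0 and 10.96, 10.79 and 10.88 on day 1. Each replicate was lower on day 1, but the difference of −0.44 ± 0.11 (SE) had an adjusted p of 1 with limma over all probes. Cebpa was above background on 1 of 3 day 0 arrays, and its difference of 0.43 ± 0.13 (SE) was not called either. Nr1h3, the sterol-sensing LXRα, rose from 6.45 to 8.23, and Klf2, a repressor of Pparg, rose by 1.04, with an adjusted p of 0.0905 without replicate 2. Over the 26 genes of this list 2 (7.69%) were higher and 5 (19.2%) lower, against 5.38% and 4.76% of all genes. The median of 0.01 turned negative under quantile normalization (−0.02) and without scaling (−0.01).

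Genes of cell division rose broadly. Of 49 DNA replication genes, 39 (79.6%) were higher on day 1 and 0 lower, with a median of 1.03. Of 53 mitosis genes, 37 (69.8%) were higher and 0 lower, with a median of 1.49. Over all genes 5.38% were higher and 4.76% lower, and the median was 0.03.

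Promoter sequences of 5 called genes are shown as examples of windows that hold a motif counted over their lists. They are Mcm5 and Uhrf1 of the replication list, Kif22 and Cdca8 of the mitosis list and Insig1 of the cholesterol synthesis list. The sequences are RefSeq windows on build GRCm38.p6 from 250 bases before to 50 bases after the start, printed in the direction of the gene. Motifs were searched on both strands, namely the E2F-type site TTTNNCGC, the cell cycle homology region TTTGAA, the CCAAT box CCAAT, the sterol element TCACNCCAC and the cyclic AMP element TGACGTCA. The genes shown had large rises among those whose window held the E2F-type site, the cell cycle homology region and the CCAAT box, respectively. Matches to these 3 motifs are in capitals, and overlapping matches form a single run.
Mcm5, chr8:75109259-75109558, plus strand: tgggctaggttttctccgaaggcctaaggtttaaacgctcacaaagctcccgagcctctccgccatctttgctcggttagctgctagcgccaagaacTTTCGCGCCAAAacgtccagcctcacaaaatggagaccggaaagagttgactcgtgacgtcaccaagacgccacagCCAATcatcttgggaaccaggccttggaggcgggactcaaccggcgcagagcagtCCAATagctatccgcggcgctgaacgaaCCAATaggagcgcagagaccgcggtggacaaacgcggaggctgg
Uhrf1, chr17:56303087-56303386, plus strand: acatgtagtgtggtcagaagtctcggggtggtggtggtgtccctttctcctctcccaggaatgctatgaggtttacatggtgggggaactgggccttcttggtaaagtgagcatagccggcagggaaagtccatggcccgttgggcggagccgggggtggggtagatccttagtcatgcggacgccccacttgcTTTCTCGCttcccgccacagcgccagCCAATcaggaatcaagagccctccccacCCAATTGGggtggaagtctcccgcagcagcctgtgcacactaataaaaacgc
Kif22, chr7:127042371-127042670, minus strand: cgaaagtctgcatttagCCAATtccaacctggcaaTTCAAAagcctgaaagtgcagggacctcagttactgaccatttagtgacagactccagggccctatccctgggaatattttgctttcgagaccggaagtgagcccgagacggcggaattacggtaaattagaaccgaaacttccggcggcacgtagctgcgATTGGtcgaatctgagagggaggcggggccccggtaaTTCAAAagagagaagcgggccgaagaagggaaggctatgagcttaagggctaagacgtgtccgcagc
Cdca8, chr4:124936868-124937167, minus strand: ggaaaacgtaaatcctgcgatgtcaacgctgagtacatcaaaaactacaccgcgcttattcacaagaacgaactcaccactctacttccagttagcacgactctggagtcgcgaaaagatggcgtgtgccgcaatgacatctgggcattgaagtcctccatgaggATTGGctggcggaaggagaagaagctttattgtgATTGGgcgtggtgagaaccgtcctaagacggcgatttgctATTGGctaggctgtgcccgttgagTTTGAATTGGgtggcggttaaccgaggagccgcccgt
Insig1, chr5:28071162-28071461, plus strand: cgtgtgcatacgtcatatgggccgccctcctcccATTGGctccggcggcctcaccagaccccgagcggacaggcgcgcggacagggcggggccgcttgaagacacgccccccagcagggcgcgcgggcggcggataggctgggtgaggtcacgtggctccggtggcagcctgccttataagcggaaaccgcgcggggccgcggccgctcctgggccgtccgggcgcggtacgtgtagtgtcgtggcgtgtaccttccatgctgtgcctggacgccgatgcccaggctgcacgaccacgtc

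The E2F-type letters stood in 13 of 43 windows of the replication list (30.2%), 6 of 45 of the mitosis list (13.3%) 5 of 16 of the G1 list (31.2%) and 5.27% of the windows of 27025 genes. The cell cycle homology letters stood in 31 of 45 mitosis windows (68.9%), 18.6% of replication windows and 18.1% of all windows. CCAAT was present in 77.8% of mitosis windows, 58.1% of replication windows, 14 of 16 cholesterol synthesis windows (87.5%), 74.1% of endoplasmic reticulum windows, 68.8% of clock windows and 37.9% of all windows. The sterol letters were in 0 of 16 cholesterol windows and 1.22% of all windows, and the cyclic AMP letters in 2 of 22 windows of cyclic AMP-responsive genes (9.09%) and 1.88% of all windows. A match is a description of these letters and does not show binding.

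Among the replication genes Tk1, thymidine kinase, rose most. It read 8.58, 8.52 and 9.16 on day 0 and 11.19, 11.18 and 11.87 on day 1, a difference of 2.66 ± 0.14 (SE) or 6.31-fold. Replicate 3 was highest on both days, and the days did not overlap. Asf1b, a histone chaperone, rose by 1.85, Dbf4, the activating subunit of the CDC7 kinase, by 1.80, and Rrm2, the regulated subunit of ribonucleotide reductase, by 1.80. Mcm5, a subunit of the replicative helicase, read 11.53, 11.40 and 11.40 on day 0 and 13.22, 13.13 and 13.22 on day 1, a rise of 1.74. Uhrf1, which guides maintenance of DNA methylation, rose by 1.52.

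Among the mitosis genes the factor Foxm1, which drives genes of late cell cycle, read 7.43, 7.37 and 7.30 on day 0 and 9.60, 9.52 and 9.46 on day 1, a rise of 2.16 ± 0.15 (SE). The kinesin gene Kif22 rose by 2.16 and Cdca3, a trigger of mitotic entry, by 2.12, while Cdca8, a subunit of the chromosomal passenger complex, came up from below background, at least 3.41-fold. Ccnb1, cyclin B1, read 10.18, 10.18 and 9.31 on day 0 and 11.84, 11.77 and 10.99 on day 1. Replicate 3 was lowest on both days, and the rise was 1.64 ± 0.13 (SE). Ccna2, cyclin A2, read 6.48, 6.48 and 5.36 on day 0 and 8.36, 8.46 and 5.95 on day 1, with 2 of 3 arrays above background on each day. Replicate 3 was far below the others, and the rise of 1.48 had an adjusted p of 1 without replicate 1 and 1 without replicate 2.

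Of 22 G1 cyclins, CDK inhibitors and RB family genes, 5 (22.7%) were higher and 1 (4.55%) lower, against 5.38% and 4.76% of all genes. Ccnd1, cyclin D1, read 12.55, 12.49 and 12.49 on day 0 and 13.68, 13.54 and 13.72 on day 1, a rise of 1.14 ± 0.07 (SE). The days were well apart. The CDK inhibitor genes Cdkn1a (p21) and Cdkn2d (p19) rose by 0.72 and 1.07, and Cdk2 rose by 0.70. Cdkn2b (p15) fell by 0.62. Cdk2 had an adjusted p of 0.118 without replicate 1 and 0.0611 without replicate 3, and Cdkn2b of 0.128 to 0.748 without any one replicate. Cdkn1b (p27) was above background on no array.

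In the neighbouring intervals, which share the day 0 or day 1 arrays, the replication list had 16 of 49 members lower and 0 higher from day −2 to day 0, and 0 higher and 0 lower from day 1 to day 2. The mitosis list had 31 of 53 lower and 0 higher, and then 0 higher and 0 lower, with a median of −0.14 in the later interval. Over all genes, 4.47% were higher and 5.66% lower from day −2 to day 0, and 1.93% and 1.98% from day 1 to day 2.

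**Figure D3:**
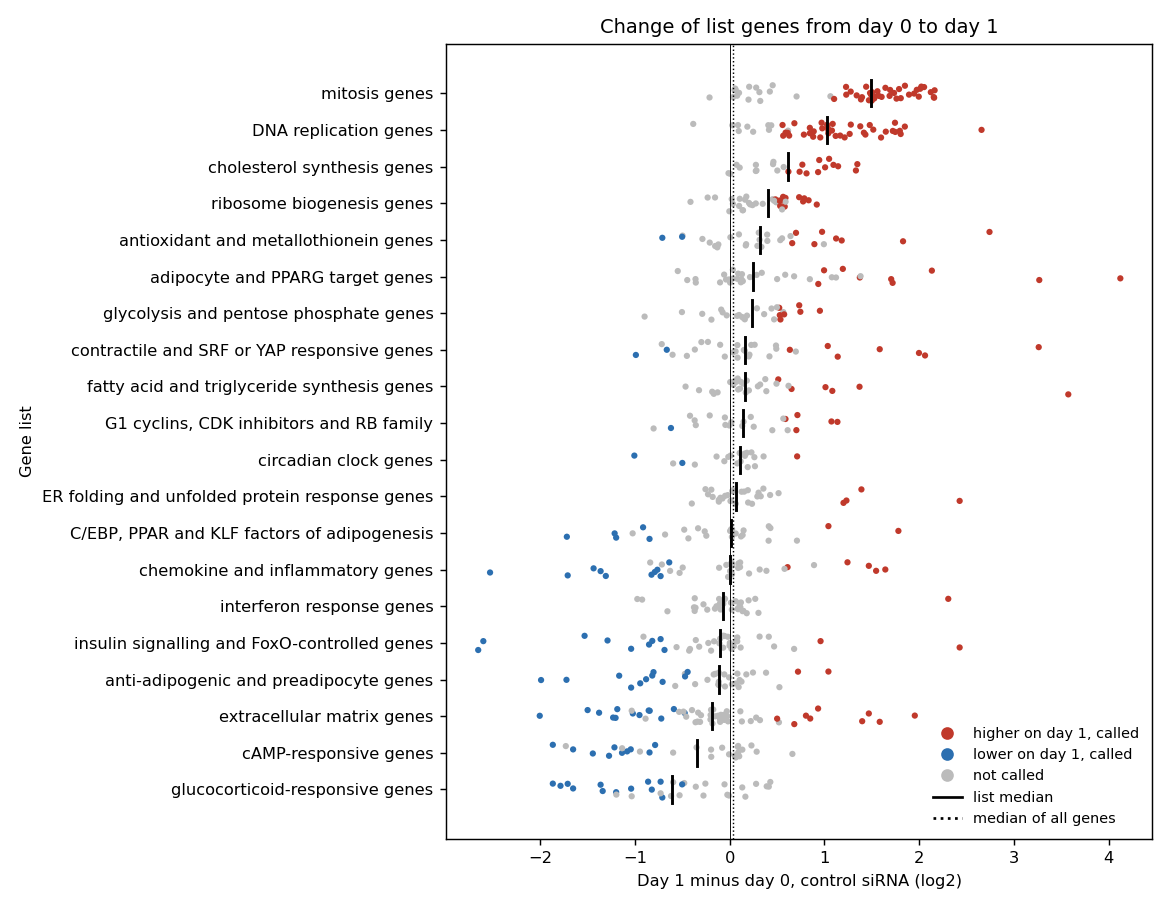
Day 1 minus day 0 in control siRNA cells (log2, x axis) for the measured genes of each list (y axis), one point per gene at its brightest probe, coloured for called higher, called lower and not called, with a bar at each list's median. The mitosis and replication lists lie farthest to the right, at medians of 1.49 and 1.03, and the glucocorticoid-responsive list farthest to the left, at −0.61.

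Of 36 adipocyte and PPARγ target genes, 9 (25%) were higher and 0 lower, against 5.38% and 4.76% of all genes. The list median of 0.25 was 0.501 with dim probes filtered out and 0.16 without background correction. In bulk RNA, more cells of a type and more RNA per cell cannot be told apart. Besides Cidec and Mrap, the droplet coat gene Plin1 rose at least 3.15-fold from below background on day 0 to 8.23, 8.14 and 8.05 on day 1. Plin4, another perilipin, read 10.90, 10.88 and 10.62 on day 0 and 12.68, 12.62 and 12.26 on day 1. Its days did not overlap, and the rise was 1.72 ± 0.09 (SE). The hormone gene Adipoq, for adiponectin, read 10.23, 10.15 and 9.42 on day 0 and 11.91, 11.89 and 11.12 on day 1. Its rise of 1.70 had an adjusted p of 0.000137 with limma, but of 0.817 without replicate 1 and 0.102 without replicate 2.

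Several well-known adipocyte genes did not pass the test by day 1. Fabp4, the adipocyte fatty acid binding protein, was above background on 0 day 0 arrays and on 2 of 3 day 1 arrays, where its values ran from 6.11 to 8.13. The replicates differed widely, and the difference was not called. Lpl, lipoprotein lipase, was already bright, and its difference was 0.13 ± 0.10 (SE). Angptl4, an inhibitor of that lipase, read 13.08, 12.99 and 12.71 on day 0 and 13.08, 12.99 and 12.69 on day 1, the same within 0.02 in each pair. Cd36, a fatty acid translocase, was above background on none of the 6 arrays. From day 1 to day 2, 20 of the 36 genes were higher and 0 lower, against 1.93% and 1.98% of all genes.

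The same day was followed in cells given PPARγ siRNA, and the change was compared between the siRNAs by an interaction term. The targeted gene, Pparg, read 8.80, 9.11 and 9.46 on day 0 and 8.58, 8.35 and 8.92 on day 1 in PPARγ siRNA cells, below every control array of the same day. In PPARγ siRNA cells 5.17% of genes rose and 4.19% fell. The change differed between siRNAs for 121 probes. By gene, 0.269% had a larger and 0.321% a smaller value in control cells, and 72 of these 112 genes also changed in control cells. The median over all probes was 0.04 in control and −0.12 in PPARγ siRNA cells. With each siRNA's median subtracted, 167 probes were called, of which 32 had the larger value in control cells, in place of 55.

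Lipid storage genes rose more in control cells. Gpd1 rose by 3.57 in control cells and had a difference of −0.03 in PPARγ siRNA cells. The difference between siRNAs was 3.60 (limma, adjusted p = 8.42e-16). Cidec rose by 4.12 in control cells and was above background on no day 0 or day 1 array of PPARγ siRNA cells. Mrap, BC054059 and Plin1, with their rises of at least 4.56-fold, 4.72-fold and 3.15-fold in control cells, were likewise above background on no array of PPARγ siRNA cells on these days. These 5 genes were called for the difference between siRNAs, and with the medians subtracted the difference of Gpd1 was 3.44. Of the 36 adipocyte and PPARγ target genes, 7 had a larger value in control cells and 0 a smaller one, against 0.269% and 0.321% of all genes. Lipe, hormone-sensitive lipase, and Angptl4 were among the 7 although the difference of neither was called in control cells, and in PPARγ siRNA cells Lipe went from above background on 3 day 0 arrays to 0 day 1 arrays and Angptl4 had a difference of −0.94. Adipoq, at 1.70 and 0.10, did not pass this test (limma, adjusted p = 0.338).

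Among genes with the smaller value in control cells, Angpt2 fell by 3.24 in control cells and had −0.99 in PPARγ siRNA cells. Its difference of −2.25 lost the call without replicate 1 (adjusted p = 0.0947 with limma) and without replicate 2 (adjusted p = 0.0729). Fhdc1, an actin and microtubule organiser, fell by 1.59 in control cells and had a difference of 0.52, a higher day 1 value, in PPARγ siRNA cells. Col8a1, a collagen of blood vessel walls, had values of −1.20 and 0.40, and the stromelysin gene Mmp11 −1.38 and 0.07. The transcription factor gene Bach2 was above background on 2 of 3 day 0 arrays and on 0 on day 1 in control cells, so its fall was at least 1.06-fold, and it was called for the difference between siRNAs. Without replicate 2 the Col8a1 difference had an adjusted p of 0.0968, without replicate 1 the Mmp11 difference had 0.683, and the Bach2 difference had 1 without replicate 1 and 1 without replicate 2. Of 55 extracellular matrix genes, 7 had a smaller and 0 a larger value in control cells, against 0.321% and 0.269% of all genes. Actg2 rose by 3.26 in control and by 4.65 in PPARγ siRNA cells, a difference of −1.39 (limma, adjusted p = 5.64e-06).

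No division gene was called in this test. The replication list had a median of 1.03 in control and 0.89 in PPARγ siRNA cells, with 34 of 49 higher in the latter. The mitosis list had 1.49 and 1.01, with 33 of 53 higher, against 5.17% of all genes in PPARγ siRNA cells. The glucocorticoid list had medians of −0.61 and −0.72, and of its genes only Angptl4 was called for the difference between siRNAs.

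**Figure D4:**
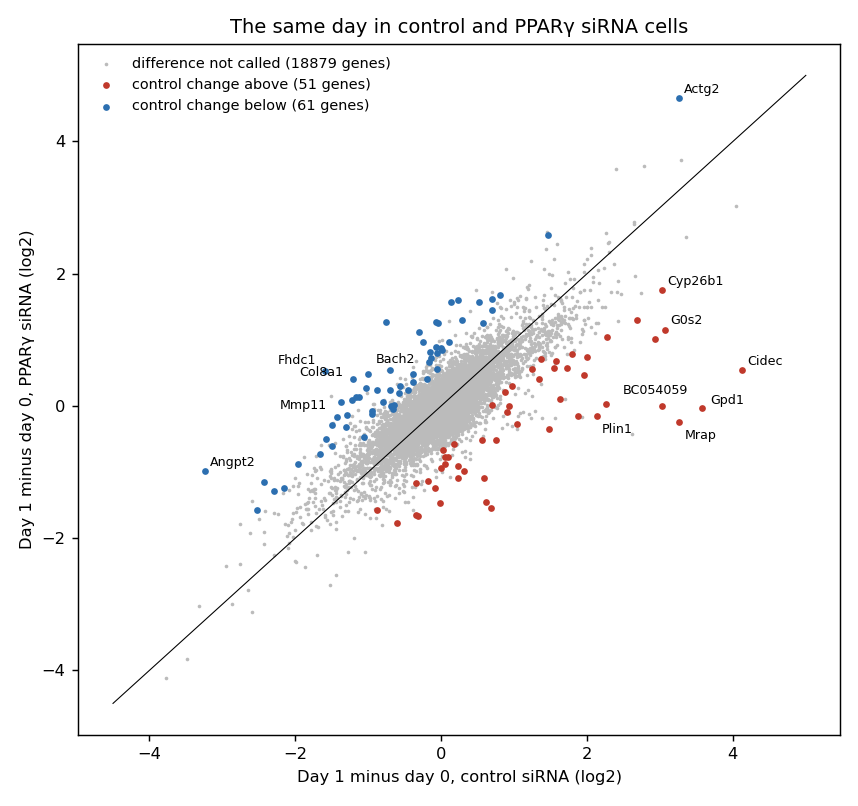
Day 1 minus day 0 (log2) in control siRNA cells (x axis) against PPARγ siRNA cells (y axis) for each of 18991 genes, with colours for the genes whose change differed between the siRNAs in either direction and a line at equal change. Gpd1 lies far to the right, at 3.57 on the x axis and −0.03 on the y axis, and the positions of Mrap, BC054059 and Plin1 rest on day 0 values not above background.

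Of 31 contractile genes and targets of SRF or YAP, 7 (22.6%) were higher and 2 (6.45%) lower, against 5.38% and 4.76% of all genes. The list median was 0.16. Acta2, smooth muscle α-actin, read 12.97, 12.84 and 13.40 on day 0 and 15.02, 14.74 and 15.43 on day 1, a rise of 2.00 ± 0.13 (SE). Actg2 read 7.44, 7.44 and 7.76 on day 0 and 10.61, 10.58 and 11.24 on day 1. In both genes replicate 3 was highest on both days and the days did not overlap. Myl9, a regulatory myosin light chain, rose by 1.58, and Ccn2, connective tissue growth factor, which was above background on 0 day 0 and 2 day 1 arrays, rose at least 2.01-fold, with an adjusted p of 0.569 without replicate 1 and 0.197 without replicate 2. Srf, a factor that drives many of these genes, fell by 0.66, and Lims2, a focal adhesion protein, by 0.99. Srf had an adjusted p of 0.277 without replicate 1 and 0.889 without replicate 2, and Lims2 of 0.139 and 0.716. On day −2 Acta2 had been at 15.58 and Actg2 at 11.95, and on day 2 they were at 13.84 and 8.46. 18 of the 31 genes were lower from day −2 to day 0 and 12 from day 1 to day 2, against 5.66% and 1.98% of all genes.

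Extracellular matrix genes moved both ways, with 9 of 55 (16.4%) higher and 13 (23.6%) lower, against 5.38% and 4.76% of all genes. The list median was −0.18. Spp1, osteopontin, rose by 1.95 and Thbs2, thrombospondin 2, by 1.40. Timp1, an inhibitor of matrix metalloproteinases, read 11.10, 11.13 and 11.24 on day 0 and 12.71, 12.66 and 12.85 on day 1, a rise of 1.58. Adamts1, a protease of proteoglycans, read 10.66, 10.76 and 11.21 on day 0 and 8.84, 8.60 and 9.18 on day 1, a fall of 2.00 ± 0.14 (SE). Neither gene's days overlapped. Mmp11 fell by 1.38, Tnc, tenascin C, by 1.23, and Fbn1, the microfibril protein fibrillin, went from 12.23 to 10.73. Col1a1 rose by 0.85, with an adjusted p of 0.223 without replicate 1 and 0.0865 without replicate 2. Col3a1, another fibrillar collagen, read 12.50, 12.56 and 9.40 on day 0 and 11.97, 12.29 and 9.29 on day 1. Replicate 3 was far below the others on both days, and the difference was not called.

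Of 37 chemokine and inflammatory genes, 5 (13.5%) were higher and 10 (27%) lower, against 5.38% and 4.76% of all genes. The list median of 0.01 turned to −0.03 under quantile normalization and −0.02 without scaling. The monocyte chemokine genes Ccl7 and Ccl9 rose by 1.64 and 1.55, the protease gene Mmp3 rose at least 1.51-fold from below background, and the IL-33 receptor gene Il1rl1 rose by 1.24. Cx3cl1, fractalkine, read 11.05, 10.89 and 10.97 on day 0 and 8.58, 8.29 and 8.45 on day 1. It had the largest fall of this list, 2.53 ± 0.10 (SE). The acute phase gene Saa3 fell by 1.36, and Mmp13, a collagenase, fell at least 1.31-fold to below background. Saa3 had an adjusted p of 0.109 without replicate 1 and 0.221 without replicate 2. Socs3, the feedback inhibitor of cytokine signalling, fell by 0.73, with an adjusted p of 0.192 to 1 without any one replicate. Ccl2, a monocyte chemokine, was above background on 1 of the 6 arrays and was called only without replicate 3 (limma, adjusted p = 0.0297), and Il6 was above background on none.

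Of 23 cholesterol synthesis genes, 12 (52.2%) were higher and 0 lower, against 5.38% and 4.76% of all genes. The list median was 0.62. Insig1, the sterol-regulated protein that retains SREBP in the endoplasmic reticulum, rose by 1.35 ± 0.13 (SE). Fdps, farnesyl diphosphate synthase, read 12.38, 12.29 and 12.37 on day 0 and 13.79, 13.64 and 13.62 on day 1, a rise of 1.33. The days were well apart. Lss and Cyp51, which make and demethylate lanosterol, rose by 1.14 and 1.095. From day −2 to day 0, 12 of the 23 were lower, against 5.66% of all genes. From day 1 to day 2, 7 were higher, against 1.93%.

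Of 30 fatty acid and triglyceride genes, 6 (20%) were higher and 0 lower, against 5.38% and 4.76% of all genes. After Gpd1, the acyltransferase gene Agpat2 rose by 1.37, the desaturase gene Fads2 by 1.08 and glycerol kinase, Gk, by 1.01, the last with an adjusted p of 1 without replicate 1. The differences of Fasn, fatty acid synthase, and Scd1, stearoyl-CoA desaturase, were −0.32 ± 0.09 and 0.38 ± 0.12 (SE) and were not called. Of 26 genes of glycolysis and the pentose phosphate path, 7 (26.9%) were higher and 0 lower, against 5.38% and 4.76% of all genes. The rises were 0.95 for transaldolase (Taldo1), 0.75 for pyruvate kinase (Pkm), 0.73 for aldolase (Aldoa) and 0.58 for triosephosphate isomerase (Tpi1). Aldoa had an adjusted p of 0.107 without replicate 1 and 0.148 without replicate 2, and Tpi1 of 0.348 to 1 without any one replicate.

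Of 39 genes of insulin and IGF signalling and of FoxO control, 9 (23.1%) were lower and 2 (5.13%) higher, against 4.76% and 5.38% of all genes. Igfbp4 read 11.17, 11.04 and 11.01 on day 0 and 8.55, 8.59 and 8.13 on day 1. Its days did not overlap, and on day 2 its mean was 10.88. Igfbp5, another IGF binding protein, fell at least 2.41-fold to below background. Igf1 itself read 10.34, 10.14 and 10.86 on day 0 and 8.90, 8.72 and 9.13 on day 1, a fall of 1.53 ± 0.15 (SE). Trib2, a pseudokinase and FoxO target, fell by 1.29, and Igfbp6 rose by 0.96. Trib3, a pseudokinase that binds AKT and is induced by ATF4, read 8.68, 8.54 and 8.90 on day 0 and 11.24, 11.13 and 11.02 on day 1, a rise of 2.43. The insulin receptor gene Insr was above background on no array. Pdk4, a brake on pyruvate dehydrogenase, had a difference of −0.36 ± 0.13 (SE), not called.

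Of 31 genes of endoplasmic reticulum folding and the unfolded protein response, 4 (12.9%) were higher and 0 lower, against 5.38% and 4.76% of all genes. The 4 higher genes were Trib3, Chac1, which degrades glutathione, Asns, asparagine synthetase, and Herpud1, a factor of protein degradation at the reticulum. Chac1, Asns and Herpud1 rose by 1.39, 1.23 and 1.20. Trib3, Chac1 and Asns are known targets of ATF4. The other 27 genes of the list were not called by their brightest probes, and dimmer probes were not counted. Chac1 had an adjusted p of 0.451 without replicate 1 and 0.0674 without replicate 2.

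Of 30 antioxidant and metallothionein genes, 8 (26.7%) were higher and 2 (6.67%) lower, against 5.38% and 4.76% of all genes. Gsta3, a glutathione transferase, rose at least 2.4-fold from below background, and Gclm, the modifier subunit of the first enzyme of glutathione synthesis, read 9.34, 8.90 and 9.46 on day 0 and 11.07, 11.03 and 11.09 on day 1. Its days did not overlap, and the rise was 1.83 ± 0.11 (SE). Gstm1 rose by 1.12. Gsta2 rose at least 1.31-fold, with an adjusted p of 1 without replicate 1 and 1 without replicate 2. Glutathione transferases are a family of close paralogs, so their probes may share signal. The lower genes were the metallothioneins Mt1 and Mt2, which glucocorticoids induce, at −0.50 and −0.71, with adjusted p of 0.0901 to 1 without any one replicate.

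Of 34 ribosome biogenesis genes, 12 (35.3%) were higher and 0 lower, against 5.38% and 4.76% of all genes. The list median was 0.40, and 0.50 in PPARγ siRNA cells. Heatr1, a factor of ribosomal RNA transcription and processing, read 11.33, 11.37 and 11.31 on day 0 and 12.19, 12.22 and 12.09 on day 1, a rise of 0.83 ± 0.09 (SE). The days were clearly apart. Nhp2, a protein of the particles that modify RNA, rose by 0.78. Ltv1, a factor of small subunit assembly, rose by 0.92, with an adjusted p of 0.172 without replicate 2, and Nop56 by 0.79, with an adjusted p of 0.396 to 1 without any one replicate.

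Of 36 preadipocyte and anti-adipogenic genes, 11 (30.6%) were lower and 2 (5.56%) higher, against 4.76% and 5.38% of all genes. Foxc2, a forkhead factor, read 11.28, 11.20 and 8.83 on day 0 and 9.39, 9.20 and 6.76 on day 1. Replicate 3 was far lower than the others on both days, and the fall was 1.99 ± 0.16 (SE). Pdgfra, the growth factor receptor that marks mesenchymal progenitors, fell by 1.72, and Id2 and Id4, inhibitors of basic helix-loop-helix factors, by 1.17 and 1.04. Id4 had an adjusted p of 0.678 without replicate 2 and 1 without replicate 3. Dlk1, the preadipocyte factor, read 13.58, 13.72 and 13.99 on day 0 and 13.33, 13.17 and 13.37 on day 1. Each pair was lower on day 1, and the difference of −0.47 ± 0.09 (SE) had an adjusted p of 0.164 with limma. Klf2 and Thy1, a fibroblast surface protein, rose by 1.04 and 0.72, Thy1 with an adjusted p of 1 without replicate 1 and 1 without replicate 2.

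Of 33 interferon response genes, 1 (3.03%) was higher and 0 lower, against 5.38% and 4.76% of all genes. The higher gene was Ifit2, an inhibitor of viral translation. It rose at least 3.83-fold from below background to 8.60, 8.61 and 8.07 on day 1. Of 20 clock genes, 1 (5%) was higher and 2 (10%) were lower, against 5.38% and 4.76% of all genes. Dbp, a factor of the clock's output, rose by 0.71. The repressor gene Bhlhe40 went from 11.03 to 10.03, and the kinase gene Csnk1e fell by 0.50. Dbp and Csnk1e had adjusted p of 0.182 to 1 without any one replicate. Per1, a clock gene that glucocorticoids also induce, had a difference of −0.60 ± 0.16 (SE) and was not called.

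**Figure D5:**
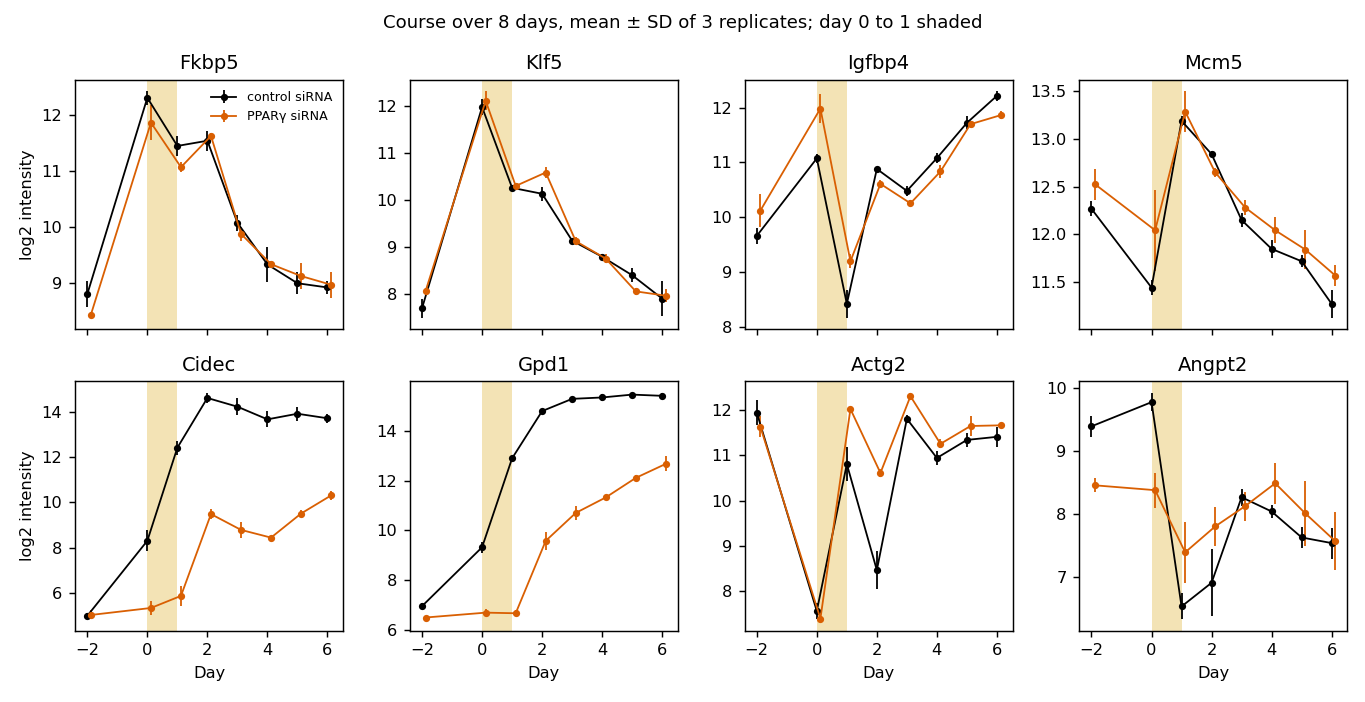
Log2 intensity (y axis) of 8 genes over the sampled days (x axis) in control siRNA cells (black) and PPARγ siRNA cells (orange), mean ± SD of 3 replicates, with the first day of insulin and rosiglitazone shaded. In control cells over the shaded day Fkbp5, Klf5, Igfbp4 and Angpt2 fell and Mcm5, Cidec, Gpd1 and Actg2 rose, and the Gpd1 difference in PPARγ siRNA cells was −0.03.

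Marker genes were checked against the labelled cell line. All 10 fibroblast and preadipocyte markers were above background on all 6 arrays. Their summed linear signal was 106000 to 112000 on day 0 and 98900 to 101000 on day 1. By gene, 2 of these 10 (20%) were called higher and 1 (10%) lower, against 5.38% and 4.76% of all genes. The median difference of these markers was −0.06. Of 10 adipocyte markers, 7 were above background on at least 1 array. Called higher were 3 (30%), namely Cidec, Plin1 and Adipoq, and 0 were lower, against 5.38% and 4.76% of all genes. The summed signal of the list was 1460 to 2230 on day 0 and 7460 to 11500 on day 1. Such a sum mostly follows the brightest probes and does not describe the list as a whole. Lep, Retn and Adrb3, which mark mature fat cells, were above background on no array. On any of the 6 arrays, 1 of 10 macrophage markers, 1 of 8 endothelial, 0 of 7 epithelial and 1 of 8 skeletal muscle markers, the last being the actin gene Acta1, were above background.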

How the data were processed

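Samples were assigned to groups from their titles. The authors deposited mean bead intensities of Illumina MouseRef-8 arrays from BeadStudio 3.3.7, and a detection value per probe, a fraction equal to 1 minus the detection p-value. 288 further columns (lowest and highest signal, spread and number of beads and of arrays) were not used. In limma 3.58.1 (R 4.3.3), background was corrected by normexp with detection p-values and an offset of 16. Arrays were scaled over rank-invariant probes, taken from the 50th to the 90th percentile of mean signal with a rank shift under 0.05 of all probes, after the rank-invariant method of the study (factors 0.821 to 1.43). One linear model on the log2 scale covered the 48 arrays, with siRNA and day combined into groups and replicate number as blocking term, and p-values were adjusted by Bonferroni over 24613 probes. The numbers pair the samples: deviations of day 0 and day 1 arrays of replicates 1, 2 and 3 correlated at 0.794, 0.715 and 0.903 over probes. Replicates 1 and 2 also correlated with each other, at 0.704 and 0.649, so the check mainly sets replicate 3 apart.

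Genes named were the 10 largest rises and falls called in every pair, a set of key genes, up to 4 called genes per list and direction, and 5 per direction for the difference between siRNAs. Uhrf1 and Lipe were chosen after their values were seen. A gene that this rule names is not reported here. The members and lists were chosen with earlier results of these data known. Symbols were matched to RefSeq directly (13869) or by synonym (3473). A gene above background on no array of a day has only a lower bound of its fold. 27 other probes of named genes were above background, and 25 of them were called in the same direction. A run on data simulated from the model's own fit, with independent normal errors, checks the computation and not the model's assumptions. The number of arrays, 3 per group, limits the precision.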

Additional observations from a re-analysis of the deposited data

Results flagged for a closer look

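The change from day 0 to day 1 differed between control and PPARγ siRNA cells for 121 probes by the interaction term (limma, Bonferroni). Among the genes named for this, the change in control cells minus the change in PPARγ siRNA cells was 3.60 for Gpd1, 3.59 for Cidec, 3.52 for Mrap, 3.04 for BC054059 and 2.29 for Plin1. It was −2.25 for Angpt2, −2.11 for Fhdc1, −1.60 for Col8a1, −1.48 for Bach2 and −1.44 for Mmp11. In control cells Mrap, BC054059 and Plin1 were not above background on day 0 and Bach2 not on day 1, and in PPARγ siRNA cells Cidec, Mrap, BC054059 and Plin1 were above background on neither day, so these 5 values are not exact sizes. The median of this difference over all probes was 0.13.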

How the results depend on the processing

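Against 2231 called probes, quantile normalization, no background correction, a normexp offset of 50, a filter on dim probes and a minimum change of 1.5-fold gave counts within 1.5 times. The count was 852 without scaling between arrays, 5556 by Benjamini-Hochberg, 1127 with no replicate block and 396 with only the arrays of the groups compared and the replicate block, a setting with fewer arrays. Leaving out 1 replicate gave 1017 (without replicate 1) to 1593. The share of higher probes was 50.8% to 57.7% in these settings. For the difference between siRNAs, 121 probes became 30 without scaling, 621 by Benjamini-Hochberg, 42 with no replicate block, 19 with only the arrays compared and the replicate block, and 24 (without replicate 1) to 111 without 1 replicate. Control changes above PPARγ siRNA changes were 45.5% of these calls, 34.2% without background correction, 78.9% with only the arrays compared, 58.3% and 61.3% without replicates 1 and 2, and 19.2% with the medians subtracted, a setting chosen after seeing the data. A replicate block within each siRNA, also chosen after seeing the data, gave 2501 and 152 probes. Of 20 lists, 14 had a median above 0, and 12 to 15 in the alternatives. 117 named genes were called, 65 with only the arrays compared, and 91 to 107 without 1 replicate. No called gene among them changed direction. The list medians whose sign depended on the setting were those of the C/EBP list, down to −0.26 with the filter on dim probes, the chemokine list, down to −0.51 with the same filter, and the interferon list, at −0.07 and at 0.01 with the mean of all probes. The cAMP list median was also −0.20 with the mean of all probes and −0.21 with the larger offset. The causes were not tested.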
